A study of Mus musculus with 2 samples.

Results

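The genes described here belong to families of enzymes that add and remove methyl and acetyl groups on histones. Some members act on other proteins instead, as given below. They were the rows of both allelic FPKM files whose symbol begins with Kdm, Setd, Prmt, Kat, Hdac or Sirt followed by a family number or letter, which gave 61 of the 22711 genes listed. Of these, 17 were Kdm lysine demethylase genes, 11 Setd genes, 8 Prmt arginine methyltransferase genes, 7 Kat lysine acetyltransferase genes, 11 Hdac deacetylase genes and 7 Sirt genes, which encode deacylases that use NAD. The rule follows symbols, so enzymes with other names, such as Ezh2 or Ep300, were not among them.

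The RNA came from 2 cultures of immortal mouse embryonic fibroblasts (MEF), both hybrids of the inbred strains C57BL/6N (B6) and PWK/PhJ (PWK), grown in DMEM with newborn calf serum on gelatin. In the line PWK-Xi, of the strain label C57BL/6N X PWK/PhJ, the inactive X chromosome (Xi) is the PWK copy. In the line B6-Xi, labelled PWK/PhJ X C57BL/6N, it is the B6 copy. Each line gave 1 library, made with the Smart-seq2 protocol from polyadenylated RNA, so there was no replicate, no test between the lines and no p-value, and every difference below compares 2 libraries. The sources used here do not give how the lines were immortalized or whether each is a clone. Values are FPKM (fragments scaled to transcript length and to the size of the library), a scale for setting levels of different genes side by side. The total of a gene is the sum of its B6 and PWK alleles, and its B6 share is the B6 part of that sum. How reads were assigned to alleles is not stated, so how well such sums compare between genes is unknown.

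Facts of the libraries bear on the values that follow. Of 14 fibroblast marker genes, 13 in PWK-Xi and 12 in B6-Xi had at least 1 FPKM; Vim was listed at 0 in both lines, so a 0 can also fall on a gene that fibroblasts express. Of 6 markers of pluripotent cells, 5 were above 0 in PWK-Xi and 0 in B6-Xi, with summed levels of 152.8 and 0 FPKM. In PWK-Xi these were Dppa5a (134.9 FPKM), Pou5f1 (15.1 FPKM), Sox2 (2.19 FPKM), Nanog (0.36 FPKM) and Esrrb (0.18 FPKM), at least 99.1% of each from B6, while Zfp42 was listed at 0. Markers of epithelial and endothelial cells summed to 1.03 and 0.205 FPKM in PWK-Xi and to 0 and 0.0476 FPKM in B6-Xi. Those of immune, neural and muscle cells summed to 3.30, 6.36 and 2.11 FPKM in PWK-Xi and to 1.39, 3.68 and 0 FPKM in B6-Xi. In PWK-Xi the highest of each were Cd68, Tubb3 and Des. The part that RNA of another cell type has in the levels and shares of the enzyme genes in PWK-Xi was not tested. In bulk RNA, fewer cells of a type and less RNA per cell cannot be told apart.

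Histone tails carry methyl and acetyl marks that are written, read and erased by different protein families. Acetylation by Kat enzymes and its removal by Hdac and Sirt enzymes go with active and silent chromatin, while the meaning of a methyl mark depends on the residue that carries it. Kdm enzymes remove methyl groups from lysines, those with a JmjC domain using iron and 2-oxoglutarate and the Kdm1 enzymes using FAD. In female mammals a pair of these genes has a further role, since Kdm5c, an eraser of H3K4 methylation, and Kdm6a, an eraser of H3K27 methylation, are known to be expressed from the otherwise silent X and have relatives on the Y chromosome.

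The X-linked members were therefore described first. There were 4, and 3 of them had at least 1 FPKM in both lines. Their promoters, from RefSeq on GRCm38.p6 and running from 250 bases before the transcription start to 50 bases after it, are shown because these genes differed in expression from the Xi. The first 2 genes had reads from both X chromosomes and the last from the active one only. Capitals mark CG dinucleotides, the targets of DNA methylation.
Kdm5c (chrX:152232977-152233276, plus strand): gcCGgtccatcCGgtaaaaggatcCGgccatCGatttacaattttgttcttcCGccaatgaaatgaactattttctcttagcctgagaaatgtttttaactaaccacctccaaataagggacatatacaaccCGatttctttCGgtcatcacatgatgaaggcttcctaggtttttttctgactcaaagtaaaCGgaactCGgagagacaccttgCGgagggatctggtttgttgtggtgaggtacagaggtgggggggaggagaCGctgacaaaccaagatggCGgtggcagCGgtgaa
Kdm6a (chrX:18162325-18162624, plus strand): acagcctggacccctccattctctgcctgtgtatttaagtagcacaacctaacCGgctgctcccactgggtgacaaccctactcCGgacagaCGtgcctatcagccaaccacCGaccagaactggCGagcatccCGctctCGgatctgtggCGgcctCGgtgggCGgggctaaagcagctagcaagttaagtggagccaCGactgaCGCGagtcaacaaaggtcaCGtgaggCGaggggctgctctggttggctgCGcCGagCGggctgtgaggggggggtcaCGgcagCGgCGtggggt
Hdac6 (chrX:7947840-7948139, minus strand): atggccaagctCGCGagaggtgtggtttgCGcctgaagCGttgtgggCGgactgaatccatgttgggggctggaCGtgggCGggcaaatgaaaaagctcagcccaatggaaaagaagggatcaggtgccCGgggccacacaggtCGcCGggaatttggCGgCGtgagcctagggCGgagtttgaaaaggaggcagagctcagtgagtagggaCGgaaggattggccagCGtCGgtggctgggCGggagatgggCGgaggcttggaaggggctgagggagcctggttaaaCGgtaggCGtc
The Kdm5c promoter holds 13 CG dinucleotides, that of Kdm6a 21 and that of Hdac6 20. The median was 20 over the 71 promoters listed for 51 of the 61 members, and 7 over all 32851 promoters of the table. The letters AAGATGGC, the core of the motif of the zinc-finger factor YY1, searched like the others on both strands, occur in the Kdm5c promoter, not in those of Kdm6a and Hdac6, in 1 of the 71 member promoters and in 2.75% of all promoters. GGGCGG, the GC box of Sp1-type factors, occurs in the Kdm6a and Hdac6 promoters and in 35.7% of all, and CCAAT occurs in those of Kdm5c and Hdac6 and in 37.4% of all. TATAAA, found in 13.6% of all, occurs in none of them. Of these motifs, none was present in both Kdm5c and Kdm6a and missing from Hdac6; each GGGCGG also holds a CG. A match describes these letters and not a bound factor.

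Kdm5c and Kdm6a had reads from both X chromosomes in both lines, and Hdac6 from the active X alone. Kdm5c had 0.893 FPKM from the Xi and 2.84 FPKM from the active X in PWK-Xi, against 2.05 FPKM from the Xi and 1.07 FPKM from the active X in B6-Xi. Its Xi allele was thus the lower one in PWK-Xi and the higher one in B6-Xi, and the B6 allele was higher in both, 3.18-fold in PWK-Xi and 1.91-fold in B6-Xi. Kdm6a had 0.443 FPKM from the Xi and 1.48 FPKM from the active X in PWK-Xi, against 0.214 and 1.93 FPKM in B6-Xi. For this gene the active allele was the higher one whichever strain it came from, 3.33-fold in PWK-Xi and 9-fold in B6-Xi. Both genes reached an Xi share of 10% in both lines, as did 2.49% of the 241 genes of the X that passed 1 FPKM in each line; the share of Kdm6a in B6-Xi was 10.0%, at the limit. With levels below 4 FPKM, these allele ratios rest on little signal, and their error is unknown. Kdm5d, the Y-linked relative of Kdm5c, was listed at 0 in both lines.

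**Figure D1:**
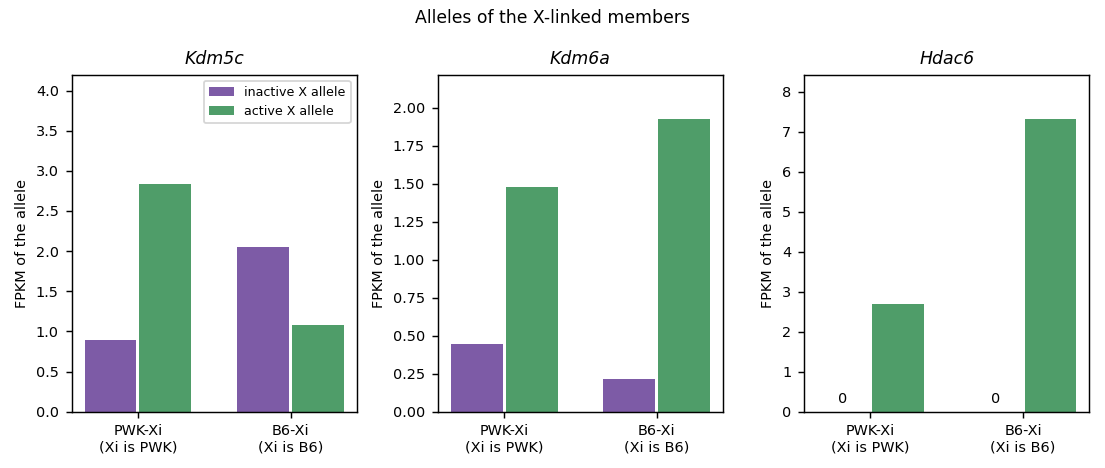
FPKM of the inactive and active X allele of Kdm5c, Kdm6a and Hdac6 in PWK-Xi (left bars of each panel) and B6-Xi (right bars), 1 library each, with no error bars. The Xi allele of Kdm5c stands at 0.893 FPKM in PWK-Xi and 2.05 FPKM in B6-Xi, and that of Hdac6 is at 0 in both.

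Hdac6, a cytoplasmic deacetylase gene whose product acts on tubulin, had 2.70 FPKM in PWK-Xi and 7.33 FPKM in B6-Xi. All of it came from the active X, so from B6 in PWK-Xi and from PWK in B6-Xi. The 4th X-linked member, Hdac8, a class I deacetylase gene, was listed at 0 in both lines.

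Summed over the 61 genes, these enzymes made up 0.134% of all FPKM in PWK-Xi and 0.0952% in B6-Xi. In PWK-Xi 52 members were above 0, 47 had at least 1 FPKM and 11 had at least 10 FPKM. In B6-Xi these numbers were 48, 42 and 10. Over all 22711 genes they were 12907, 9040 and 3212 in PWK-Xi and 10127, 8100 and 2681 in B6-Xi, so both counts fell in B6-Xi. The median of the members above 0 was 4.26 FPKM in PWK-Xi and 3.41 FPKM in B6-Xi, beside 3.14 and 3.79 FPKM over all genes above 0. Each median is over the genes above 0 in its own line, which are fewer in B6-Xi. These medians therefore set members beside all genes within a line and do not compare the lines. The 10 highest members of each line held 56.1% of the members' summed FPKM in PWK-Xi and 56.8% in B6-Xi. Across the 48 members above 0 in both lines the rank order of levels was alike in both (Spearman's rho 0.76), as it was over all 9901 such genes (0.89), a description over genes that share 2 libraries.

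Listed at 0 were 9 members in PWK-Xi, beside 43.2% of all genes, and 13 in B6-Xi, beside 55.4%. The 9 were at 0 in both lines, 14.8% of the 61 beside 42.2% of all genes. These were Kdm1b, Kdm4d, Kdm5d, Kdm8, Setdb2, Prmt8, Hdac8, Hdac11 and Sirt5. They include a mitochondrial sirtuin gene (Sirt5), the neuronal arginine methyltransferase gene Prmt8 and the only class IV deacetylase gene (Hdac11). Sirt5 shares stretches with genes at other loci, the longest of 843 bases at 97.6% identity with Wdr31. Kdm1b shares 505 bases with the overlapping gene Dek, and Hdac11 594 bases with Gm44002. The zeros of these genes are therefore uncertain and do not show absence of expression.

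**Figure D2:**
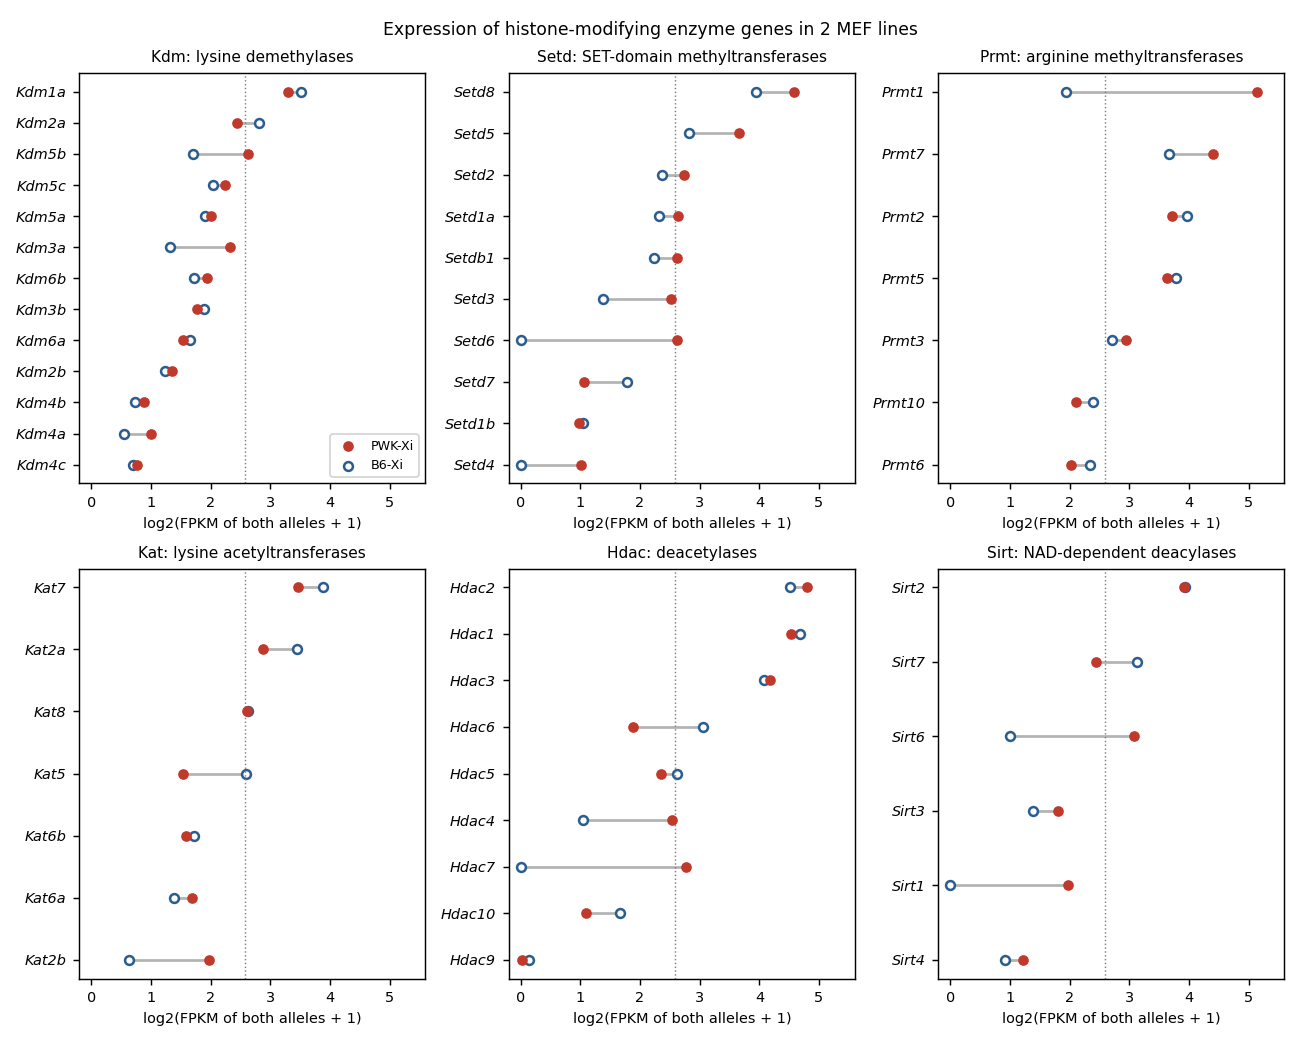
Summed FPKM of both alleles of the 52 members above 0 in at least 1 line, on a log2(FPKM + 1) axis, by family, with filled points for PWK-Xi and open points for B6-Xi. The dotted line marks 5 FPKM. Hdac2, Hdac1, Setd8 and Prmt1 reach the highest levels, and Prmt1 has the widest gap between the lines.

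Among the demethylase genes, Kdm1a was the most abundant. This gene, also known as LSD1, encodes the FAD-dependent eraser of H3K4 mono- and dimethylation and had 8.87 FPKM in PWK-Xi and 10.4 FPKM in B6-Xi. Kdm5b, an autosomal relative of Kdm5c, was next in PWK-Xi, with 5.20 FPKM there and 2.25 FPKM in B6-Xi. Kdm2a, an eraser of H3K36 methylation, was next in B6-Xi, with 4.41 FPKM in PWK-Xi and 6.03 FPKM in B6-Xi. Among the Kdm genes above 0, those of the Kdm4 group, erasers of H3K9 and H3K36 trimethylation, lay lowest in both lines. Kdm4a, Kdm4b and Kdm4c stayed between 0.703 and 0.994 FPKM in PWK-Xi and between 0.468 and 0.661 FPKM in B6-Xi. Kdm6b, the autosomal H3K27 demethylase gene, had 2.85 FPKM in PWK-Xi and 2.31 FPKM in B6-Xi, close to its X-linked relative Kdm6a with 1.92 and 2.14 FPKM.

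Of the lysine methyltransferase genes, Setd8 stood highest, with 22.9 FPKM in PWK-Xi and 14.4 FPKM in B6-Xi. Its product, now called KMT5A, places a single methyl group on H4K20. Setd5 had 11.6 FPKM in PWK-Xi and 6.05 FPKM in B6-Xi. Setd2, the gene of the enzyme that trimethylates H3K36, had 5.69 and 4.19 FPKM in PWK-Xi and B6-Xi, and Setdb1, that of an H3K9 methyltransferase, 5.17 and 3.70 FPKM. The H3K4 methyltransferase genes Setd1a and Setd1b differed from each other in level: Setd1a had 5.22 FPKM in PWK-Xi and 3.96 FPKM in B6-Xi, while Setd1b had 0.965 FPKM in PWK-Xi and 1.06 FPKM in B6-Xi.

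The arginine methyltransferase genes held the largest summed level of the 6 families in PWK-Xi, 90.9 FPKM against 55.8 FPKM in B6-Xi. Prmt1, which encodes the main enzyme of asymmetric arginine dimethylation, accounted for most of that gap: without it the sums were 56.7 FPKM in PWK-Xi and 52.9 FPKM in B6-Xi. Prmt7, an arginine monomethyltransferase gene, had 20.1 FPKM in PWK-Xi and 11.7 FPKM in B6-Xi. Prmt2 had 12.1 and 14.7 FPKM in PWK-Xi and B6-Xi, and Prmt5, the gene of the main symmetric dimethyltransferase, 11.4 and 12.7 FPKM. Prmt3, Prmt6 and Prmt10 lay between 3.05 and 6.68 FPKM in PWK-Xi and between 4.06 and 5.53 FPKM in B6-Xi. Prmt6 shares 984 bases with an antisense gene, C130013H08Rik. The sources used here do not state the use of strand, and without it reads there cannot be assigned to either gene, so these values are uncertain.

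The acetyltransferase genes were all above 0 in both lines. Kat7, which encodes an H3K14 and H4 acetyltransferase also known as HBO1, was the most abundant, with 10.1 FPKM in PWK-Xi and 13.8 FPKM in B6-Xi. Kat2a (GCN5) had 6.33 and 9.95 FPKM in PWK-Xi and B6-Xi, and Kat8 (MOF), an H4K16 acetyltransferase gene, 5.12 and 5.18 FPKM. Kat2b (PCAF), the closest relative of Kat2a, stayed at 2.92 FPKM in PWK-Xi and 0.555 FPKM in B6-Xi; its transcript shares 2479 bases at 95.1% identity with the pseudogene Kat2b-ps, so these values are uncertain.

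Class I genes dominated the deacetylases. Hdac1, Hdac2 and Hdac3, the catalytic subunits of nuclear corepressor complexes, together with Hdac8 at 0 held 78.1% of the summed Hdac FPKM in PWK-Xi and 79.8% in B6-Xi. Hdac2 had 26.7 FPKM in PWK-Xi and 21.7 FPKM in B6-Xi, Hdac1 22.2 and 24.7 FPKM, and Hdac3 17.1 and 15.97 FPKM. The values of Hdac1 are uncertain, because its transcript shares 1444 bases at 99.4% identity with the processed pseudogene Gm10093. The class IIa genes Hdac4, Hdac5, Hdac7 and Hdac9, regulators that shuttle between nucleus and cytoplasm, summed to 14.7 FPKM in PWK-Xi and 6.29 FPKM in B6-Xi. Among the sirtuin genes Sirt2, a mainly cytoplasmic deacetylase gene, was the most abundant at 14.2 FPKM in both lines.

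The lines were next compared gene by gene. Differences are log2((PWK-Xi + 1)/(B6-Xi + 1)), taken where 1 or both lines reached 5 FPKM. The median gene above 0 in both lines was shifted by 0.19 on this scale. This shift is taken off every log2 value printed below, whereas calls of 2-fold keep it. Of the 61 members 27 reached 5 FPKM. At least 2-fold higher in PWK-Xi were 4 of the 27 (14.8%), beside 17.8% of all 5490 genes compared, and at least 2-fold lower were 2 (7.41%), beside 5.83%. The median log2 difference of the members was -0.10, and that of all genes compared was 0.03. With the shift taken off, the calls were again 4 and 2, beside 14.0% and 8.67% of all genes. The members thus differed between the lines about as often as other genes did.

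Prmt1 had the largest difference among members above 0 in both lines. It had 34.2 FPKM in PWK-Xi and 2.84 FPKM in B6-Xi, a 12-fold higher level with a log2 difference of 3.0. Both alleles took part, with 15.8 FPKM from B6 and 18.4 FPKM from PWK in PWK-Xi, against 1.58 and 1.26 FPKM in B6-Xi. The 20 nearest measured genes on chromosome 7 had a median log2 difference of -0.16 before the shift was taken off.

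Sirt6, a nuclear sirtuin gene whose product removes acetyl groups from H3K9 and H3K56, had 7.48 FPKM in PWK-Xi and 1.0 FPKM in B6-Xi, 7.48-fold higher in PWK-Xi with a log2 difference of 1.89. Hdac7 had 5.78 FPKM and Setd6, the gene of a methyltransferase of the NF-kB subunit RelA, had 5.14 FPKM in PWK-Xi, and both were listed at 0 in B6-Xi, so no fold is given. The same pattern at lower level was seen for Sirt1, the founding nuclear sirtuin gene, with 2.92 FPKM in PWK-Xi, and for Setd4 with 1.01 FPKM. These 4 were the only members at 0 in 1 line with at least 1 FPKM in the other. They made 8.51% of the 47 members with at least 1 FPKM in PWK-Xi, beside 7.92% of all such genes, and no member was at 0 in PWK-Xi and at 1 FPKM or more in B6-Xi, beside 0.42% of all such genes. Over all genes, 3006 were at 0 in B6-Xi only and 226 in PWK-Xi only. Such zeros thus fall mostly in the B6-Xi library, and the part that its depth has in them was not tested.

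The members lower in PWK-Xi were Hdac6 and Kat5. Hdac6, described above, was 2.71-fold lower in PWK-Xi, with a log2 difference of -1.36. Kat5, which encodes the TIP60 acetyltransferase of the NuA4 complex, had 1.89 FPKM in PWK-Xi and 5.04 FPKM in B6-Xi, 2.66-fold lower, with a log2 difference of -1.26. Its transcript overlaps that of the neighbouring gene Rnaseh2c over 426 bases, and without strand, whose use the sources used here do not state, reads there cannot be assigned to either gene.

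The remaining 21 of the compared members lay within 2-fold, at log2 differences from -0.88 (Sirt7) to 0.74 (Kdm5b). The pseudocount understates differences of low genes, and without it Kdm5b was 2.31-fold higher in PWK-Xi. By family, all 6 compared Setd genes were above the median gene, from 0.13 for Setd1a upwards, beside 52.1% of all genes compared. Setd1a, Setd2, Setdb1 and Setd6 reached 5 FPKM in PWK-Xi only, so the minimum itself favoured this direction for them. Among Setd genes under that minimum, Setd3 (0.95) and Setd4 (0.81) lay above the median gene. Setd7 (-0.91) and Setd1b (-0.26) lay below it. All 4 compared Kat genes were below the median gene, from -1.26 for Kat5 to -0.21 for Kat8, beside 47.9% of all. Kat5 reached 5 FPKM in B6-Xi only. Among Kat genes under that minimum, Kat2b (1.14) and Kat6a (0.12) lay above the median gene and Kat6b (-0.32) below it. Neither count thus describes a whole family. Both counts were the same with both libraries scaled to the same summed FPKM and read against the median gene on that scale. That check was chosen after the data were seen, and it could change little, because the median gene moves with the scale. Read against 0 on that scale, 6 Setd genes were higher in PWK-Xi and 3 of the 4 Kat genes lower. With a minimum of 1 FPKM in place of 5, the number of compared members was 48, of which 10 were higher (20.8%, beside 18.1% of all genes) and 2 lower (4.17%, beside 4.84%). The 6 members added were Hdac4 (4.77 FPKM in PWK-Xi and 1.06 FPKM in B6-Xi), Kdm3a (3.99 and 1.49 FPKM), Setd3 (4.74 and 1.59 FPKM), Kat2b, Setd4 and Sirt1.

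**Figure D3:**
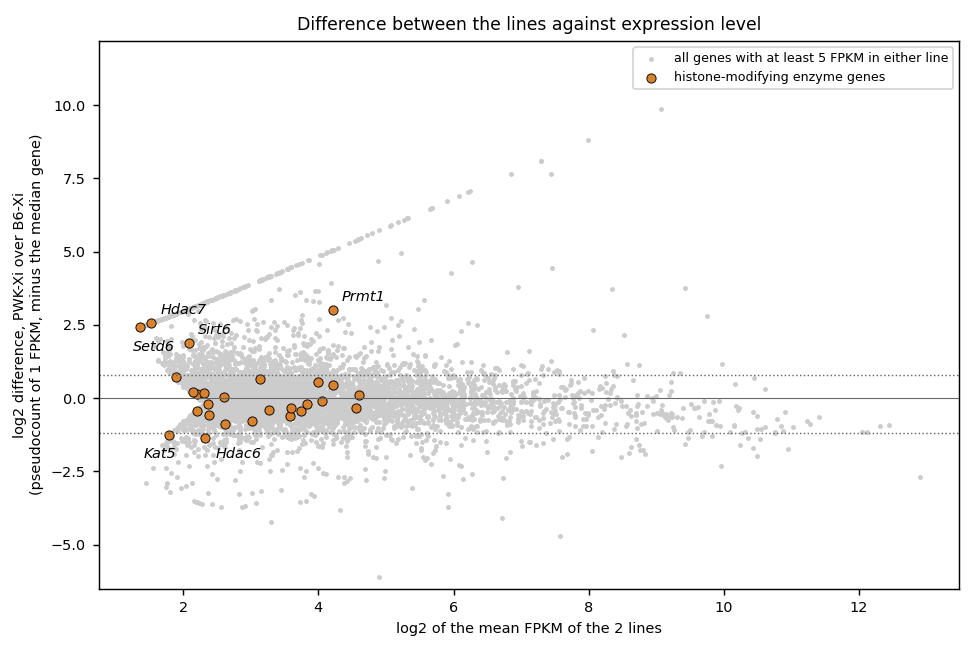
Log2 difference (PWK-Xi over B6-Xi, pseudocount of 1 FPKM, relative to the median gene) against log2 of the mean FPKM, for the 27 members (orange) and all 5490 genes (grey) that reached 5 FPKM; dotted lines mark 2-fold. Prmt1, Sirt6, Hdac7 and Setd6 lie above the lines and Hdac6 and Kat5 below them. The straight upper row of grey points are genes listed at 0 in B6-Xi.

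Allele shares of the autosomal members were read next, for the 38 with at least 1 FPKM in both lines. Their median B6 share was 56.5% in PWK-Xi and 54.0% in B6-Xi, beside 52.7% and 50.0% over all 7436 autosomal genes measured. A B6 share of at most 33.3% or at least 66.7%, which is a 2-fold ratio of the alleles, was found for 8 members in PWK-Xi (21.1%, beside 23.3% of all) and for 16 in B6-Xi (42.1%, beside 43.1%). The steps between possible shares were not equally fine. Among members at 1 FPKM or more, 10.6% in PWK-Xi and 50% in B6-Xi matched, to 0.001 points, a ratio of whole numbers whose denominator was 10 or less, beside 12.8% and 47.1% of all such genes in PWK-Xi and B6-Xi. A share of exactly 0% or 100% was found for 6 of the 38 members in B6-Xi and for 0 in PWK-Xi, beside 888 and 55 of all 7436 genes. The part that the coarse steps of B6-Xi have in its shares was not tested. The rank order of shares was hardly alike between the lines, with a Spearman's rho of 0.12 over the 38 members and 0.19 over all genes.

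In PWK-Xi all 8 uneven members leaned to B6 (21.1% of the 38, beside 15.8% of all autosomal genes) and none to PWK (beside 7.48%). Of all uneven autosomal genes in this line 67.9% leaned to B6. They were Sirt6 (90.3%), Hdac4 (81.9%), Setd1a (80.8%), Setd3 (79.3%), Kdm2b (78.1%), Prmt7 (75.5%), Kat2a (70.2%) and Kdm6b (69.7%). The pluripotency markers above 0 in this library also came from B6, as given above, and their part in this lean was not tested. The part of the alignment to mm9 and of the allele assignment, whose method is not stated, was not tested either. In PWK-Xi, Hdac4 lies on a chromosome shifted to B6 (chromosome 1, median B6 share 70.2%) and Kdm2b on one shifted to PWK (chromosome 5, 36.5%), while the chromosomes of the other 6 had medians of 52.5% to 54.1%, near the autosomal 52.7%. In B6-Xi 10 members leaned to B6, beside 21.2% of all genes, and 6 to PWK, beside 21.9%.

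A B6 share of at least 66.7% in both lines was found for 4 of the 38 members (10.5%, beside 5.66% of all). For Sirt6 it was 90.3% in PWK-Xi and 100% in B6-Xi, and for Setd1a 80.8% and 100%. For Kdm2b, an H3K36 demethylase gene of a variant Polycomb complex, it was 78.1% in PWK-Xi and 85.7% in B6-Xi, and for Prmt7 75.5% and 68.4%. At least 90% came from 1 strain for 1 member in PWK-Xi (2.63%, beside 2.17% of all) and for 6 in B6-Xi (15.8%, beside 13.6%), and Sirt6 was the only member in both. No member had a share of at most 33.3% in both, beside 3.21% of all; the nearest was Setd2, with 37.3% in PWK-Xi and 34.6% in B6-Xi. Setd1a shares its locus with Gm49388 over 3527 bases, and Kdm2b shares 615 identical bases with the pseudogene Gm12397, so the shares of both are uncertain. The totals of Kdm2b were only 1.55 FPKM in PWK-Xi and 1.35 FPKM in B6-Xi, and the share of Sirt6 in B6-Xi rests on 1.0 FPKM.

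Since parts of several chromosomes were skewed as a whole, each member was also set beside the 20 nearest measured genes, 10 on each side. A distance of 20 points or more from the median of these neighbours occurred for 4 members in PWK-Xi (10.5%, beside 11.4% of all) and for 11 in B6-Xi (28.9%, beside 25.5%). The median distance was 5.26 points in PWK-Xi and 12.9 points in B6-Xi. Kdm2b, Setd1a and Sirt6 were that far from their neighbours in both lines, each towards B6, making 7.89% of the members beside 4.32% of all genes that did so in 1 direction. None of them had 5 FPKM in both lines, and Kdm2b in both and Sirt6 in B6-Xi lay near the minimum of 1 FPKM, so these distances rest on little signal. The neighbours of Kdm2b on chromosome 5 had a median B6 share of 39.2% in PWK-Xi and 52.2% in B6-Xi. Those of Setd1a on chromosome 7 had 57.6% and 48.6%, and those of Sirt6 on chromosome 10 had 56.4% and 66.7%.

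**Figure D4:**
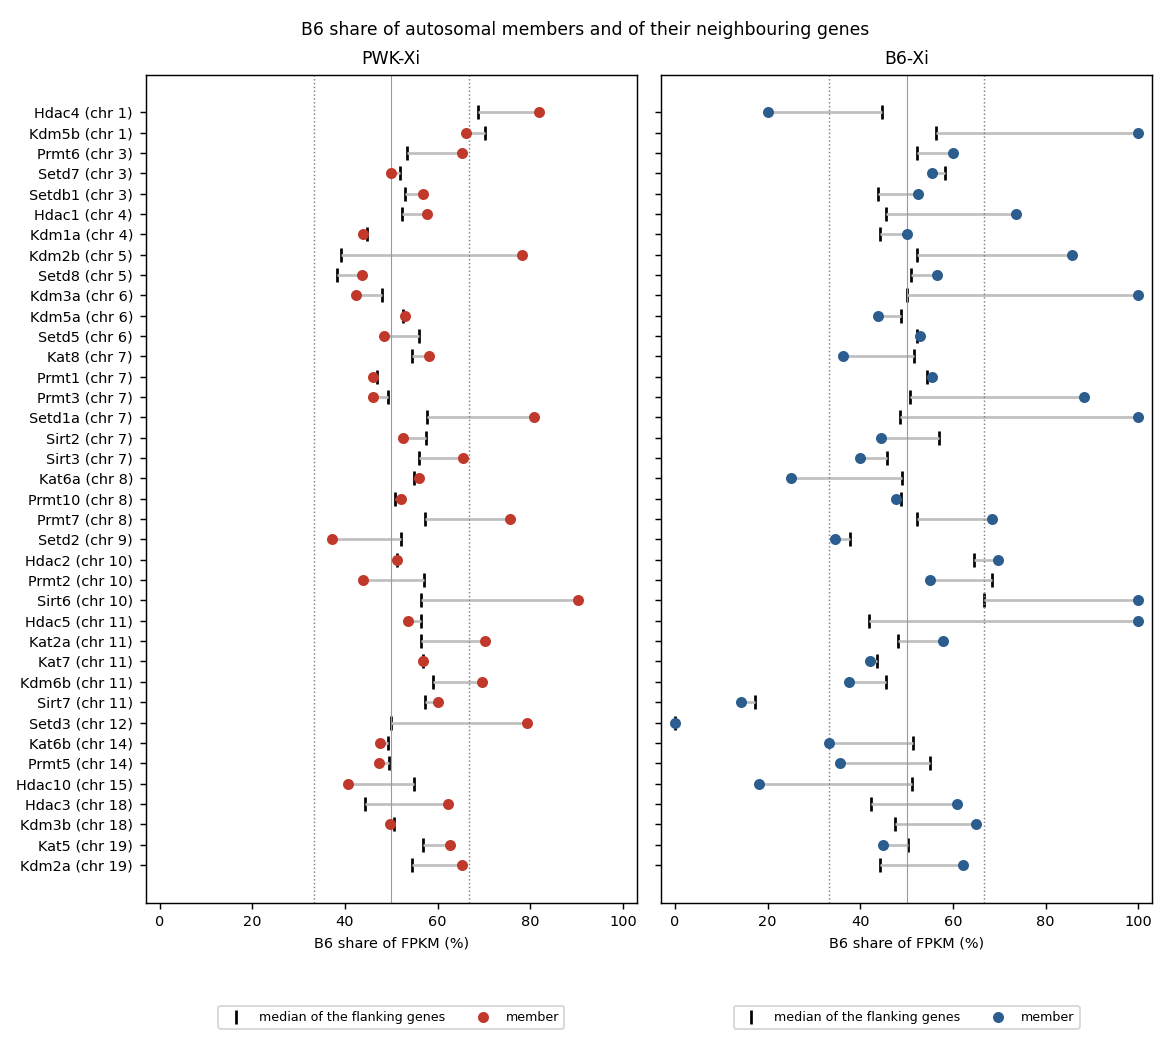
B6 share of FPKM for the 38 autosomal members with at least 1 FPKM in both lines (points), by chromosome, in PWK-Xi (left) and B6-Xi (right), with the median of the 20 flanking measured genes (ticks). Dotted lines mark 33.3% and 66.7%. Points lie nearer to their ticks in PWK-Xi, and Kdm2b, Setd1a and Sirt6 stand to the right of theirs in both panels.

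Between the lines the B6 share differed by at least 20 points for 12 members (31.6%, beside 34.6% of all), 8 with the higher share in PWK-Xi and 4 with the lower. Setd3, the gene of an actin histidine methyltransferase on chromosome 12, had 79.3% in PWK-Xi and 0% in B6-Xi. Its neighbours had 49.9% and 0%, so it stood 29.4 points from them in PWK-Xi and at their value in B6-Xi. Sirt7 was near its surroundings in both lines. This gene, which encodes a nucleolar sirtuin and lies at the end of chromosome 11, had 60.1% in PWK-Xi and 14.3% in B6-Xi, and its neighbours had 57.3% and 17.3%. Its total was 4.46 FPKM in PWK-Xi and 7.80 FPKM in B6-Xi, with 6.69 FPKM from PWK in B6-Xi. Setd3 shares 943 bases at 98.0% identity with the pseudogene Gm14026, so its share is uncertain.

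Others stood apart from their neighbours in B6-Xi. Hdac5 had 53.7% in PWK-Xi and 100% in B6-Xi, where the neighbours on chromosome 11 had 56.4% and 41.9%. Kdm3a, an H3K9 demethylase gene, had 42.4% and 100% in PWK-Xi and B6-Xi, with neighbours at 48.1% and 50.0%. Kdm5b had 66.0% in PWK-Xi and 100% in B6-Xi, and Prmt3, a cytosolic arginine methyltransferase gene, 46.0% and 88.2%. In the other direction Hdac4 had 81.9% in PWK-Xi and 20% in B6-Xi, and Kat6a, a gene of a MYST-family acetyltransferase, 56.0% and 25%. Hdac10 had 40.7% and 18.2% in PWK-Xi and B6-Xi, 33.1 points below its neighbours in B6-Xi. Kat8, Kdm6b and Sirt3 completed the 12, with shares of 58.1% to 69.7% in PWK-Xi and 36.4% to 40.0% in B6-Xi, and all 3 lay within 20 points of their neighbours in both lines. Of the 12, Kat8 and Prmt3 had at least 5 FPKM in both lines. Autosomes whose median B6 share was shifted by more than 5 points from the autosomal median in at least 1 line (chromosomes 1, 2, 3, 4, 5, 10, 11, 12 and 16) held 6 of the 12, beside 1630 of the 2576 such differences over all genes.

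The 10 members with the highest mean FPKM had both alleles in both lines. Hdac2 had a B6 share of 51.2% in PWK-Xi and 69.7% in B6-Xi, near the 64.6% of its neighbours on chromosome 10 in B6-Xi. Hdac1, uncertain for its pseudogene, had 57.6% in PWK-Xi and 73.7% in B6-Xi, where it stood 28.2 points above its neighbours on chromosome 4. Hdac3 had 62.2% and 60.9% in PWK-Xi and B6-Xi, Setd8 43.6% and 56.7%, Prmt1 46.2% and 55.6%, and Sirt2 52.4% and 44.4%. For Prmt2 the shares were 43.9% in PWK-Xi and 55.1% in B6-Xi, for Prmt5 47.4% and 35.7%, and for Kat7 56.9% and 42.0%. Prmt7, given above, was the only one of the 10 that was uneven in PWK-Xi, while Hdac1, Hdac2 and Prmt7 were uneven in B6-Xi, all towards B6.

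Other enzymes of histone modification, outside the symbol rule, and partners of their complexes were read from lists. Of 32 listed enzymes 13 had at least 5 FPKM in either line, of which 5 were at least 2-fold higher in PWK-Xi and 2 lower. The higher ones were Hat1, a histone acetyltransferase gene (60.7 FPKM in PWK-Xi and 29.7 FPKM in B6-Xi), Whsc1, an H3K36 methyltransferase gene (15.4 and 5.17 FPKM), the coactivator gene Ep300 (7.11 and 2.97 FPKM), and the methyltransferase genes Carm1 and Ehmt2, with 12.1 and 5.65 FPKM in PWK-Xi and listed at 0 in B6-Xi. Hat1 and Ep300 lay at the limit of 2-fold. The lower ones were Jmjd6 (10.4 FPKM in PWK-Xi and 24.3 FPKM in B6-Xi) and Smyd4 (1.68 and 5.79 FPKM), both on chromosome 11. Of 30 complex partners 21 were compared, 1 was higher in PWK-Xi (Epc2, a NuA4 subunit gene, with 6.34 FPKM in PWK-Xi and 1.77 FPKM in B6-Xi) and none was lower. Among all genes compared, 17.8% were higher and 5.83% lower.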

How the data were processed

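The authors deposited 1 table per library with FPKM values of the B6 and the PWK allele of each gene, per the file headers. Per the submitters' processing notes, the tools included StringTie 2.1.1, HISAT2 2.2.0 and Trim Galore 0.6.4, and the build was mm9. The sources used here do not state how reads were assigned to alleles. FPKM are not counts, and the steps of low values gave no common unit between the libraries, so depth and counting error are unknown.

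Totals, B6 shares and log2 differences with a pseudocount of 1 FPKM were computed with Python 3.11.15, numpy 2.4.6 and pandas 2.3.3, drawn with matplotlib 3.10.9 and tested on simulated data. Expression calls used a minimum of 5 FPKM in either line and shares 1 FPKM in both. Chromosome and neighbours of each gene were taken from annotations of GRCm38 (GENCODE M21, RefSeq), matched by symbol or synonym for all 61 members (Setd8 and Prmt10 by synonym). Shared transcript stretches were searched with blastn at 95% identity over 300 bases or more. Named were X-linked members, members past 2-fold, the 10 most abundant, members with share differences of 20 points or one-strain expression in both lines, and members at 0 in 1 line, with the highest of each family. Members and lists were chosen with earlier results of these data known; the comparison with flanking genes was added after the data were seen.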

Additional observations from a re-analysis of the deposited data

How the results depend on the processing

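The members higher in PWK-Xi, 4 of 27, became 10 of 48 with a minimum of 1 FPKM (20.8%, beside 18.1% of all genes), 10 of 52 with none (19.2%, beside 13.0%) and 1 of 12, Prmt1, with a minimum of 10 FPKM (8.33%, beside 17.3%). The 2 lower members became 0 with a minimum of 10 FPKM (beside 6.15%) and 1 of 14 without the X and the shifted autosomes (7.14%, beside 6.24%), where 3 of 14 were higher (21.4%, beside 13.8%). Under the remaining fold settings 3 to 6 members were higher, 12% to 22.2% of those compared, beside 14.0% to 24.4% of all genes. Each of these settings gave 2 lower members, 7.41% to 8%, beside 5.19% to 8.67%. The median log2 difference of the members, 0.09 before centring, was -0.10 after centring on the median gene, 0.25 after scaling both libraries to the same sum and 0.28 without the X and the shifted autosomes. In the same order, the medians over all genes compared were 0.23, 0.03, 0.39 and 0.09. Of these settings, the members lay above all genes only without the X and the shifted autosomes, and below them otherwise. With a minimum of 5 FPKM, alleles were uneven for 2 of 14 members in PWK-Xi (14.3%, beside 20.5% of all genes) and 4 of 14 in B6-Xi (28.6%, beside 33.6%). Without the shifted autosomes they were uneven for 2 of 20 in PWK-Xi (10%, beside 18.5%) and 7 of 20 in B6-Xi (35%, beside 37.2%), where the median B6 share was 46.3%. Share differences of 20 points were left for 2 of 14 members at 5 FPKM (beside 26.8% of all genes) and for 6 of 20 without those autosomes (beside 27.7%). Higher minimums and left-out chromosomes admit fewer genes and lower minimums more; beyond that the cause was not tested. No named member past 2-fold changed direction under another pseudocount or scaling, but this was fixed in advance and is no check. A pseudocount cannot reverse a difference. The summed FPKM, 256196 in PWK-Xi and 285397 in B6-Xi, were too alike for scaling to reverse one of 2-fold. No X-linked member had 5 FPKM in both lines, so that minimum gave no value for the Xi share. No paired analysis was possible because each line has 1 library. Without replicates or counts, no difference could be set against a spread between samples.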
